A study of Mus musculus with 18 samples.

Results

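Thalamus given Coll IV and remodelin was compared with thalamus given saline in 6 of the 18 RNA-seq libraries of the series. These are libraries 1, 2 and 3 of the group named intervene, which received Coll IV and remodelin, and libraries 1, 2 and 3 of the group named control, which received saline. All mice were WT. The labels give no age, sex, dose or time after treatment, do not expand Coll IV, and do not say whether controls received a vehicle for remodelin. Since the groups differ in both agents, the part of each cannot be told apart here. The model group, given Coll IV alone, is used only to set values beside this comparison. Of 50559 genes in the count table, 31637 had at least 1 count in these 6 libraries and 17904 passed the filter on low counts.

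The libraries were chosen by measured values: in the control and model groups, libraries 1 to 3 stood apart from libraries 4 to 6 in genes that mark brain regions, and the labels name no such division. Esam, Podxl and Stip1 were also chosen for this comparison with their values known, so their values are given below as a description without a test. Whether each numbered sample is its own animal is not stated, and p-values cover only the spread from sample to sample.

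Remodelin inhibits NAT10, an acetyltransferase that makes N4-acetylcytidine in RNA, and the series asks how it bears on inflammation-related genes in thalamic haemorrhage. Haemorrhage exposes brain tissue to blood, to which astrocytes and microglia react. Endothelial cells joined by tight junctions, with pericytes and a basement membrane around them, form the blood-brain barrier. Chaperones fold proteins in the cytosol, where heat shock factor 1 controls many of them, and in the endoplasmic reticulum, where the unfolded protein response does.

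The 6 libraries held 28481225 to 118461420 counts, with control 1 the deepest, and mitochondrial genes took 8.59 to 13.2% of them. Levels below are CPM, read counts per library size after TMM scaling. The thalamic transcription factor gene Tcf7l2 was present in each library, at 95.8, 91.1 and 60.3 CPM in intervene 1, 2 and 3, against 98.4, 102 and 101 CPM in control 1, 2 and 3. Other regions entered unevenly. The 15 choroid plexus genes summed to 983, 12208 and 375 CPM in intervene, against 1158, 335 and 363 CPM in control. Ttr, the transthyretin gene of the choroid plexus, was at 562, 10038 and 63.8 CPM in intervene, against 686, 23.3 and 69.9 CPM in control. Intervene 2 therefore carried by far the most choroid plexus RNA of the 6. The 12 striatal genes summed to 357, 709 and 538 CPM in intervene, against 2392, 430 and 390 CPM in control, so control 1 stood apart in these. Slc17a7, the vesicular glutamate transporter of cortex and hippocampus, was at 445, 696 and 277 CPM in intervene, against 123, 53.2 and 555 CPM in control. The oxytocin gene Oxt, expressed in the hypothalamus, was at 0.284, 1.03 and 107 CPM in intervene, against 40.1, 338 and 68.9 CPM in control. The part of this uneven tissue content in the results below was not tested, and counts of genes are also given without single libraries where these move them.

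**Figure D1:**
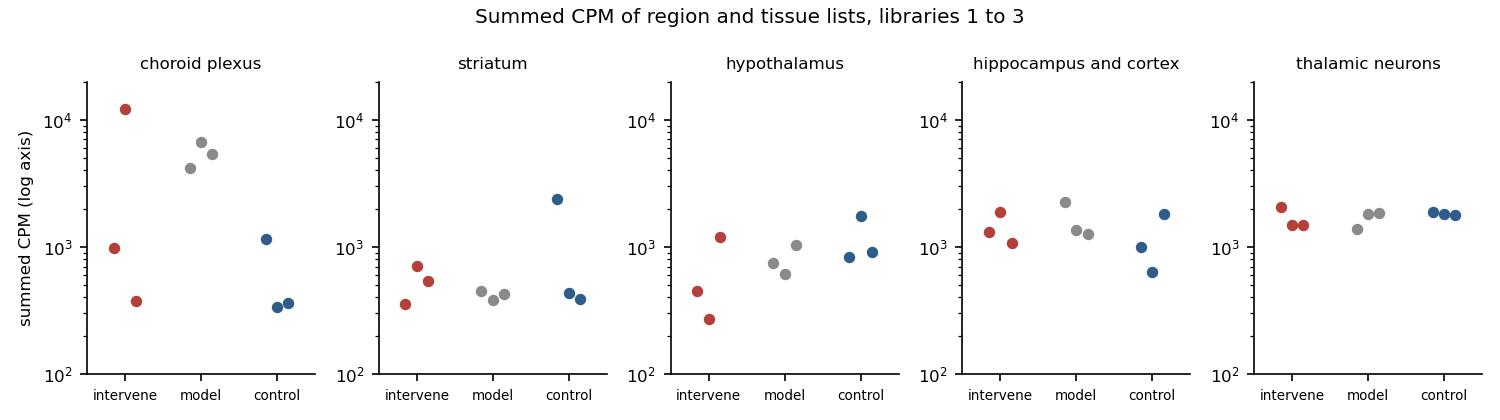
Summed CPM (log axis) of gene lists that mark choroid plexus, striatum, hypothalamus, hippocampus and cortex, and thalamic neurons, with 1 point per library numbered 1, 2 and 3 from left to right in intervene, model and control. Intervene 2 has the highest choroid plexus sum, 12208 CPM, and control 1 the highest striatal sum, 2392 CPM, while thalamic sums lie between 1379 and 2046 CPM.

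Nat10, the gene of the enzyme that remodelin inhibits, was at 16.2, 14.4 and 15.7 CPM in intervene, against 16.4, 16.9 and 15.4 CPM in control. The groups overlapped, with a log2 fold change of -0.07 ± 0.11 (SE, intervene over control) and an edgeR adjusted p of 0.892. The activity of the protein was not measured.

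Across all genes, edgeR's quasi-likelihood test called 0 genes higher and 0 lower in intervene at a Benjamini-Hochberg adjusted p under 0.05, that is 0% in each direction. At an unadjusted p under 0.05, 941 genes (5.26%) were higher and 585 (3.27%) lower. For 1386 genes (7.74%) all intervene libraries lay above all control libraries, and for 1103 (6.16%) below. DESeq2 called 38 higher and 18 lower, and limma-voom called 0. The DESeq2 calls include Esam, Podxl and Stip1, which were chosen with their values known. Several of its lower calls, such as Gm8355, Gm11223 and Dnajb6-ps, have predicted-gene or pseudogene symbols. Without control 2, edgeR called 1 gene. This was Podxl, which was chosen with its values known, so the call is no independent support. The smallest edgeR adjusted p was 0.185, and the median log2 fold change of all genes was 0.02. A positive log2 fold change was found for 53.4% of all genes tested, against which counts of positive members below are to be read. The gene groups below are described by how many members had an unadjusted p under 0.05, to be read against these percentages. The lists were drawn up with results of these data known.

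**Figure D2:**
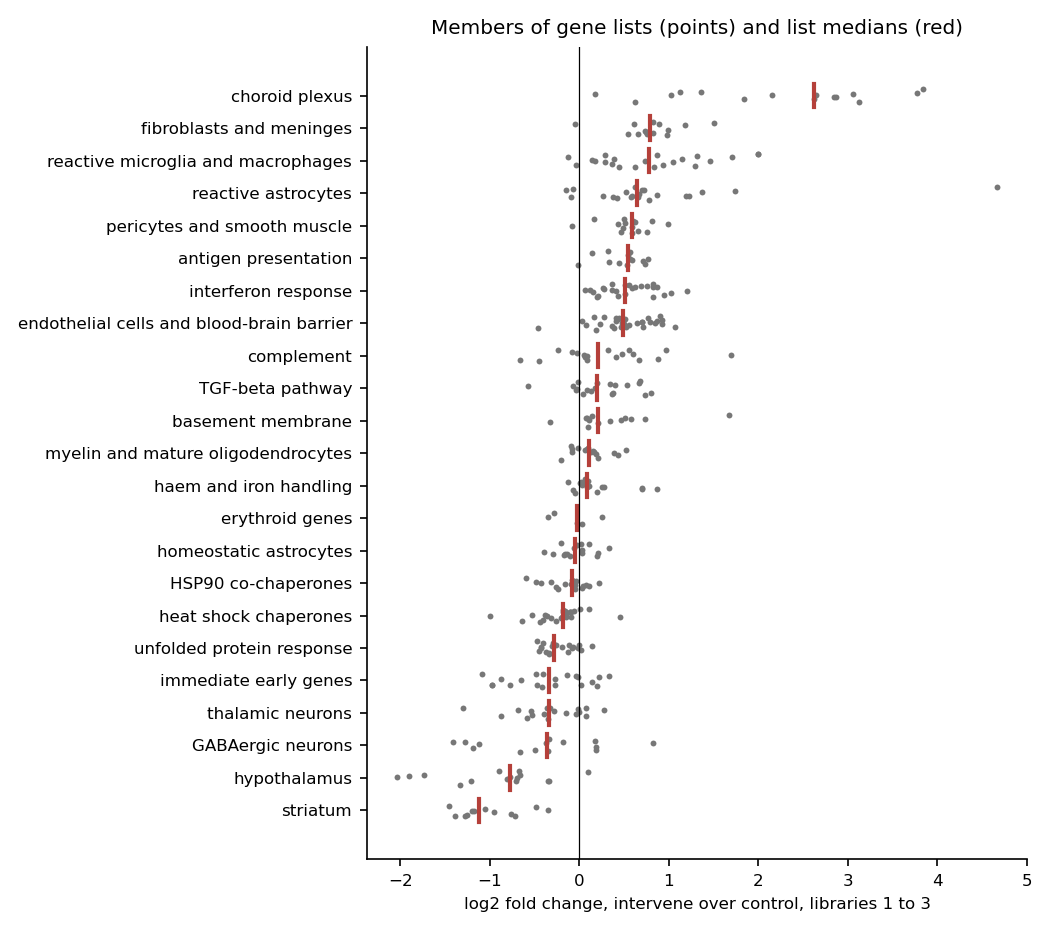
Log2 fold change of intervene over control in libraries 1 to 3 for the members of 23 gene lists, with 1 grey point per gene (spread vertically for legibility) and a red bar at each list's median. Vascular, reactive glial, complement and interferon lists have medians between 0.20 and 0.78, chaperone lists lie below 0, and the choroid plexus, at 2.62, and striatum, at -1.12, are the widest apart.

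Most endothelial genes had higher values in intervene. Their summed level overlapped slightly, at 1893 to 2102 CPM in intervene and 1577 to 1899 CPM in control. The abundant members Bsg, Spock2 and Slc2a1 had log2 fold changes of only 0.16, 0.03 and 0.08. Of 32 measured members of the endothelial and blood-brain barrier list, 31 had a positive log2 fold change, with a median of 0.49 against 0.02 over all genes. Esam and Podxl are among the 31, and without them the median was 0.48. Leaving aside Esam and Podxl, 16 of the other 30 members had an unadjusted p under 0.05 in the higher direction and 0 in the lower, and for 14 of the 30 all intervene libraries lay above all controls. In bulk tissue, more cells of a type and more RNA per cell cannot be told apart. Leaving out single libraries left 11 to 20 of these 30, with 11 without intervene 1 or control 1.

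Esam, an adhesion molecule of endothelial tight junctions, was at 12.9, 11.5 and 13.6 CPM in intervene, against 6.40, 8.54 and 7.45 CPM in control. Podxl, a sialomucin that coats the luminal face of vessels, was at 27.9, 28.2 and 26.6 CPM in intervene, against 11.8, 19.4 and 13.1 CPM in control. The groups did not overlap for either gene, and control 2 was the highest control in both. Their log2 fold changes were 0.77 ± 0.13 and 0.90 ± 0.17 (SE). Flt1, a receptor for vascular endothelial growth factor, was at 34.5, 22.9 and 30.9 CPM in intervene, against 14.8, 20.6 and 16.0 CPM in control, a log2 fold change of 0.78 ± 0.16 (edgeR adjusted p = 0.240). Slco1a4, an organic anion transporter of the barrier, was at 24.4, 28.8 and 27.7 CPM in intervene, against 12.9, 18.9 and 13.3 CPM in control (0.85 ± 0.19, edgeR adjusted p = 0.277). Neither gene's groups overlapped, although intervene 2 for Flt1 came close to control 2. Cldn5, the main claudin of barrier tight junctions, was at 38.3, 32.4 and 39.7 CPM in intervene, against 13.3, 28.0 and 17.2 CPM in control (0.92 ± 0.30, edgeR adjusted p = 0.430). The single member with a negative log2 fold change was Mfsd2a, a lipid transporter that limits transcytosis in barrier endothelium. It was at 25, 15.2 and 21.2 CPM in intervene, against 28.8, 24.6 and 31.3 CPM in control (-0.46 ± 0.23, edgeR adjusted p = 0.602), and its groups overlapped because intervene 1 lay above control 2.

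Mural and connective tissue genes stood higher as well. Of 15 pericyte and smooth muscle members 14 had a positive log2 fold change (median 0.59), 5 had an unadjusted p under 0.05 in the higher direction and 0 in the lower. Rgs5, a G-protein regulator that marks pericytes, was at 82.3, 50.1 and 62.1 CPM in intervene, against 33.8, 35.1 and 46.9 CPM in control (0.75 ± 0.17, edgeR adjusted p = 0.302). Pdgfrb, the receptor that recruits pericytes to vessels, was at 13.9, 14.7 and 16.4 CPM in intervene, against 9.48, 10.6 and 11.8 CPM in control (0.50 ± 0.13, edgeR adjusted p = 0.316). All intervene libraries exceeded all controls for both. The pericyte count depended on single libraries: it was 2 without control 1, 3 without intervene 1, intervene 3 or control 3, and 10 without control 2.

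Of 14 fibroblast and meningeal members, 13 had a positive log2 fold change (median 0.78) and 4 an unadjusted p under 0.05 in the higher direction. Lum, the matrix proteoglycan lumican, was at 3.97, 5.93 and 5.19 CPM in intervene, against 1.29, 3.0 and 2.51 CPM in control (1.18 ± 0.29, edgeR adjusted p = 0.315). Col1a2, a chain of type I collagen, was at 25.7, 27.4 and 26.8 CPM in intervene, against 8.61, 24.3 and 14.8 CPM in control, so that control 2 lay just under intervene. The fibroblast count was 1 without intervene 2, control 1 or control 3, and 12 without control 2. These genes mark meninges as well as perivascular cells, and their sum was 408 to 588 CPM in intervene and 160 to 445 CPM in control, with no member at 0. Among controls this sum was lowest in control 1 and highest in control 2, as were the endothelial and pericyte sums. Within intervene it was highest in intervene 2, where the pericyte sum was lowest, and lowest in intervene 1, where the endothelial sum was highest. The part of these genes in the endothelial and pericyte values was not tested.

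**Figure D3:**
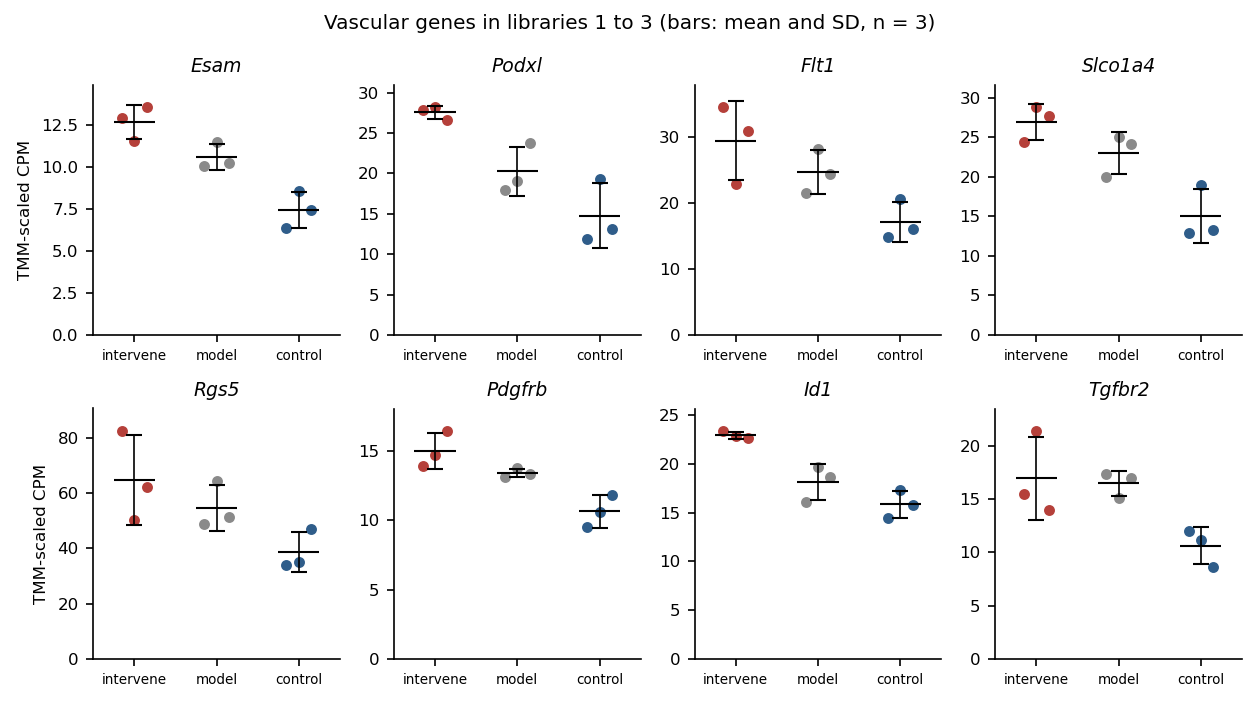
TMM-scaled CPM of 8 vascular genes in libraries 1 to 3, with 1 point per library, numbered 1, 2 and 3 from left to right, and a bar for the mean ± SD (n = 3) in intervene, model and control. For Esam, Podxl, Flt1, Slco1a4, Rgs5, Pdgfrb, Id1 and Tgfbr2 every intervene point lies above every control point, and the model mean lies between the other means. Esam and Podxl were chosen with their values known and the others are among the members of lowest p, so this separation partly follows from the choice. It held for 14 of the 30 other endothelial genes, 4 of 15 pericyte and smooth muscle genes and 7 of 19 genes of the TGF-beta pathway.

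Of 7 measured genes by which endothelium binds leukocytes, 2 were higher and 0 lower at an unadjusted p under 0.05. Vcam1, an adhesion molecule, was at 26.5, 32.7 and 28.6 CPM in intervene, against 19.3, 25.2 and 21.3 CPM in control (0.42 ± 0.13, edgeR adjusted p = 0.411), and F11r, a junctional adhesion molecule, had a log2 fold change of 0.49 ± 0.20. Its relative Jam2 had all intervene libraries below all controls, at 41.4, 40.8 and 42.7 CPM in intervene, against 51.0, 49.4 and 45.0 CPM in control (-0.22 ± 0.11, edgeR adjusted p = 0.595).

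Members of the transforming growth factor beta pathway, which acts between endothelium and pericytes, were mixed. Of 19, 14 had a positive log2 fold change (median 0.20), and 5 had an unadjusted p under 0.05, all higher. Among receptors, Tgfbr2 was at 15.5, 21.4 and 14 CPM in intervene, against 12, 11.2 and 8.67 CPM in control (0.67 ± 0.18, edgeR adjusted p = 0.316), and Tgfbr3, the co-receptor betaglycan, had a log2 fold change of 0.68 ± 0.18. Among targets, Id1, an inhibitor of DNA binding, was at 23.3, 22.8 and 22.6 CPM in intervene, against 14.5, 17.3 and 15.8 CPM in control (0.53 ± 0.16, edgeR adjusted p = 0.378), and Id3 had a log2 fold change of 0.74 ± 0.23. The groups did not overlap for any of these 4 genes. The basement membrane list had a median of 0.20, with 3 of 13 members higher at an unadjusted p under 0.05. Hspg2, the proteoglycan perlecan, was at 9.01, 10.3 and 6.92 CPM in intervene, against 4.36, 6.65 and 4.73 CPM in control. Nid2, a nidogen, was at 1.17, 5.0 and 1.39 CPM in intervene, against 1.18, 0.779 and 0.286 CPM in control, so that its value rested on intervene 2.

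Of 18 genes of coagulation, fibrinolysis and matrix proteolysis, 7 were higher and 1 lower at an unadjusted p under 0.05 (median log2 fold change 0.40). Mmp14, a membrane-bound matrix metalloprotease, was at 23.0, 27.7 and 24.1 CPM in intervene, against 14, 18.3 and 20.1 CPM in control (0.52 ± 0.14, edgeR adjusted p = 0.316). The lower gene was F3, which encodes tissue factor, the trigger of coagulation. It was at 48.3, 43.5 and 40.8 CPM in intervene, against 66.6, 54.9 and 54.7 CPM in control (-0.41 ± 0.16, edgeR adjusted p = 0.496), and the groups did not overlap. Among angiogenic factors, Pdgfb, the endothelial ligand of Pdgfrb, was higher in every intervene library, at 15.4, 14 and 12.2 CPM, against 9.68, 8.66 and 10.5 CPM in control. Vegfa, the ligand of Flt1, lay in the other direction, at 24.0, 24.0 and 22.1 CPM in intervene, against 32.2, 28.8 and 28.8 CPM in control (-0.36 ± 0.12, edgeR adjusted p = 0.415).

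Genes of reactive astrocytes were higher in part. Of 22 measured members, 19 had a positive log2 fold change (median 0.65), 9 had an unadjusted p under 0.05 in the higher direction and 0 in the lower. Tgm1, a transglutaminase gene used as an astrocyte reactivity marker, was at 0.993, 1.48 and 3.09 CPM in intervene, against 0.0735, 0.0600 and 0.0716 CPM in control. S1pr3, a receptor for sphingosine 1-phosphate, was at 6.31, 8.0 and 8.31 CPM in intervene, against 3.94, 5.52 and 5.01 CPM in control (0.65 ± 0.17, edgeR adjusted p = 0.316). The intermediate filament genes went the same way, Vim being at 68.2, 108 and 98.0 CPM in intervene, against 53.9, 67.9 and 54.1 CPM in control. The groups did not overlap for Tgm1 and S1pr3, while intervene 1 and control 2 nearly met for Vim. The count of 9 was 5 without intervene 3 or control 1 and 14 without control 2. Homeostatic astrocyte genes had a median of -0.05 over 16 members, with Aqp4, the water channel of astrocyte endfeet, the 1 higher and Ntsr2, a neurotensin receptor, the 1 lower member at an unadjusted p under 0.05.

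Reactive microglia and macrophage genes had the widest median of the immune lists, at 0.78, with 20 of 22 positive, 11 higher and 0 lower at an unadjusted p under 0.05. For 12 of the 22, all intervene libraries lay above all controls. Lyz2, the lysozyme of myeloid cells, was at 20.2, 28.4 and 38.0 CPM in intervene, against 9.64, 12.4 and 13 CPM in control (1.31 ± 0.34, edgeR adjusted p = 0.316). Lgals3, a galectin of phagocytes, was at 2.41, 6.13 and 6.42 CPM in intervene, against 1.92, 1.56 and 1.93 CPM in control. Clec7a, a receptor of disease-associated microglia, was at 1.63, 3.23 and 4.51 CPM in intervene, against 0.604, 0.719 and 1.07 CPM in control. Intervene 1 was the lowest of its group for all 3 genes. The summed level of the list overlapped, at 4463 to 5048 CPM in intervene and 4656 to 4900 CPM in control. Of 15 homeostatic microglia genes 2 were higher and 1 lower, and their median was 0.08. Neutrophil and lymphocyte markers were sparse: 3 genes of each list passed the filter on low counts, and none had an unadjusted p under 0.05.

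All 25 measured interferon response genes had a positive log2 fold change, with a median of 0.51, and 10 had an unadjusted p under 0.05. Ifit1, which binds viral RNA, was at 6.60, 6.58 and 7.16 CPM in intervene, against 1.76, 3.66 and 3.58 CPM in control (1.20 ± 0.31, edgeR adjusted p = 0.316). Bst2, the virus tether tetherin, was at 8.44, 10.9 and 9.64 CPM in intervene, against 4.02, 7.13 and 5.41 CPM in control, and Gbp3, an interferon-induced GTPase, had a log2 fold change of 0.82 ± 0.26. The groups did not overlap for these 3 genes, and control 1 was the lowest library for each. The count of 10 was 5 without intervene 1, 3 without control 1 and 6 without control 3.

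Antigen presentation genes had a median of 0.54, with 5 of 13 higher at an unadjusted p under 0.05. They included the class I genes H2-D1, at 67.6, 72.4 and 72.7 CPM in intervene and 46.1, 66.4 and 58.3 CPM in control, and H2-K1, with a log2 fold change of 0.44 ± 0.15. Reads can be shared between class I genes, so these values are uncertain. Of 18 complement genes 4 were higher and 0 lower at an unadjusted p under 0.05. C3, the central component, was at 4.79, 8.39 and 14.3 CPM in intervene, against 2.73, 2.70 and 3.08 CPM in control (1.69 ± 0.46, edgeR adjusted p = 0.331). Of 11 measured cytokines and chemokines 2 were higher, Cxcl12 and Ccl5, while Il1b, Il6, Tnf and Ccl2 did not pass the filter on low counts. In the list of Toll-like receptors and NF-kB 1 of 20 was higher, Tlr3, a receptor for double-stranded RNA, at 10.7, 9.74 and 8.55 CPM in intervene, against 6.98, 6.32 and 6.73 CPM in control (0.53 ± 0.14, edgeR adjusted p = 0.316). Of 10 inflammasome genes 1 was higher, Casp4.

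Most chaperone genes lay in the other direction. The 25 heat shock genes had a median log2 fold change of -0.18, with 22 negative, 8 lower and 1 higher at an unadjusted p under 0.05, against 3.27% of all genes lower and 5.26% higher. For 11 of the 25 all intervene libraries lay below all controls. The 20 genes of the unfolded protein response had a median of -0.28, with 18 negative, 9 lower and 0 higher. Among 17 co-chaperones of HSP90 the median was -0.08, with 12 negative, Stip1 among them, and 5 positive. Without Stip1 the median was -0.07. Leaving aside Stip1, 5 of the other 16 were lower and 0 higher at an unadjusted p under 0.05, and 2 were lower without intervene 2.

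The promoters of 4 of these genes are given to show the control elements of both pathways, from RefSeq on build GRCm38.p6, from 250 bases before to 50 after the start, 5′ to 3′ on the gene's strand, with motif matches in capitals. Calr and Hsp90b1 hold the endoplasmic reticulum stress element, CCAAT and CCACG with 9 bases between them. Hsph1 holds the heat shock element, the units GAA, TTC and GAA with 2 bases between neighbours, and an overlapping shorter form of GAA and TTC with the same spacing. Stip1 holds none of them.
Hsp90b1: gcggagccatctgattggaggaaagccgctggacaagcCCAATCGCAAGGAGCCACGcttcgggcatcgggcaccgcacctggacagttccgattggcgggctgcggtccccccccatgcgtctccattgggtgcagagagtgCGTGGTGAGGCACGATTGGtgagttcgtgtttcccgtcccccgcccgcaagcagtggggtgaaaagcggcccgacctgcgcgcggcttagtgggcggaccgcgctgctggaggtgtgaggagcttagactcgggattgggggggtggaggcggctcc
Calr: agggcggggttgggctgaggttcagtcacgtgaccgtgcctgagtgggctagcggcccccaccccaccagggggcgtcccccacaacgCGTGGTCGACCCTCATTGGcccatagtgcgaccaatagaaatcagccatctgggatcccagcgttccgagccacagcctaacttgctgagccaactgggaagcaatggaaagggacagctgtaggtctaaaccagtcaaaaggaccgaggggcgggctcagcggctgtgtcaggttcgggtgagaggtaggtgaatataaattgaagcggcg
Hsph1: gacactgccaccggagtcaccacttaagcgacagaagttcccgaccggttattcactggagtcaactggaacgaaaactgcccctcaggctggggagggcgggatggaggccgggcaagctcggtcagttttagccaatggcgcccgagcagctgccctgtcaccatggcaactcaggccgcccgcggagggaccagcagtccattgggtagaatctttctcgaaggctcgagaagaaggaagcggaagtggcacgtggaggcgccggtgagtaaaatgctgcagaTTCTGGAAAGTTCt
Stip1: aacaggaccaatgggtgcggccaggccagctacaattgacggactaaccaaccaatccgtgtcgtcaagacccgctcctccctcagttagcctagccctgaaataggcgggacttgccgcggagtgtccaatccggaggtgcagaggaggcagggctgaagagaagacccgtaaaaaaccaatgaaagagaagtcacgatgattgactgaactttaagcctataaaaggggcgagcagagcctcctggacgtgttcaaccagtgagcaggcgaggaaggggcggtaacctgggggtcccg
These windows are chr10:86705395-86705694 for Hsp90b1, chr8:84846882-84847181 for Calr, chr5:149636287-149636586 for Hsph1 and chr19:7039977-7040276 for Stip1, all on the minus strand. Both strands were searched. Genes were counted if any of their promoter windows held a match. The stress element was found for 7 of 18 genes of the unfolded protein response list (38.9%), against 0.137% of 27025 genes. The heat shock element was found for 3 of 19 heat shock genes (15.8%), against 0.662%, and its shorter form for 10 of 19 (52.6%), against 9.04%. Of the 16 HSP90 co-chaperones with a promoter window, Stip1 included, 1 held the heat shock element (6.25%) and 3 its shorter form (18.8%). A match is a run of letters in the window, and binding was not measured.

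Stip1, which passes clients between HSP70 and HSP90, was at 303, 247 and 282 CPM in intervene, against 415, 376 and 473 CPM in control. Its groups did not overlap, with a log2 fold change of -0.60 ± 0.12 (SE). Its partners lay on the same side. Hsp90ab1, the constitutive cytosolic HSP90, was at 1363, 1492 and 1434 CPM in intervene, against 1932, 1569 and 2170 CPM in control (-0.40 ± 0.11, edgeR adjusted p = 0.316). Hspa8, the constitutive HSP70, was at 2351, 2051 and 2234 CPM in intervene, against 2855, 2547 and 3269 CPM in control (-0.39 ± 0.10, edgeR adjusted p = 0.316). Hsph1, an exchange factor for HSP70, was at 283, 278 and 291 CPM in intervene, against 388, 318 and 454 CPM in control (-0.44 ± 0.11, edgeR adjusted p = 0.316). In all 4 genes control 2 was the lowest control and control 3 the highest. Hspa1a, the inducible HSP70, was at 10.5, 9.68 and 9.94 CPM in intervene, against 11.8, 14.7 and 20.8 CPM in control (-0.65 ± 0.17). Its reads can be shared with its near-identical neighbour Hspa1b. Among other HSP90 co-chaperones, Chordc1 was at 56.4, 46.0 and 56.7 CPM in intervene, against 69.1, 65.6 and 88.0 CPM in control, and the immunophilins Ppid and Fkbp4 had log2 fold changes of -0.24 ± 0.08 and -0.31 ± 0.11. The exception was Hspb8, a small heat shock protein, at 40.1, 34.0 and 39.0 CPM in intervene, against 22.9, 30.2 and 29.3 CPM in control (0.46 ± 0.14, edgeR adjusted p = 0.390).

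In the endoplasmic reticulum, Pdia4, a disulfide isomerase, was at 46.3, 51.4 and 48.1 CPM in intervene, against 59.0, 64.5 and 79.2 CPM in control (-0.47 ± 0.12, edgeR adjusted p = 0.316). Calr, the lectin chaperone calreticulin, was at 434, 467 and 437 CPM in intervene, against 579, 511 and 737 CPM in control (-0.45 ± 0.13, edgeR adjusted p = 0.349). Hsp90b1, the HSP90 of this compartment, was at 355, 361 and 376 CPM in intervene, against 441, 440 and 504 CPM in control (-0.34 ± 0.10, edgeR adjusted p = 0.355). Hyou1, an HSP70 relative, had a log2 fold change of -0.37 ± 0.10. The groups did not overlap for any of the 4.

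**Figure D4:**
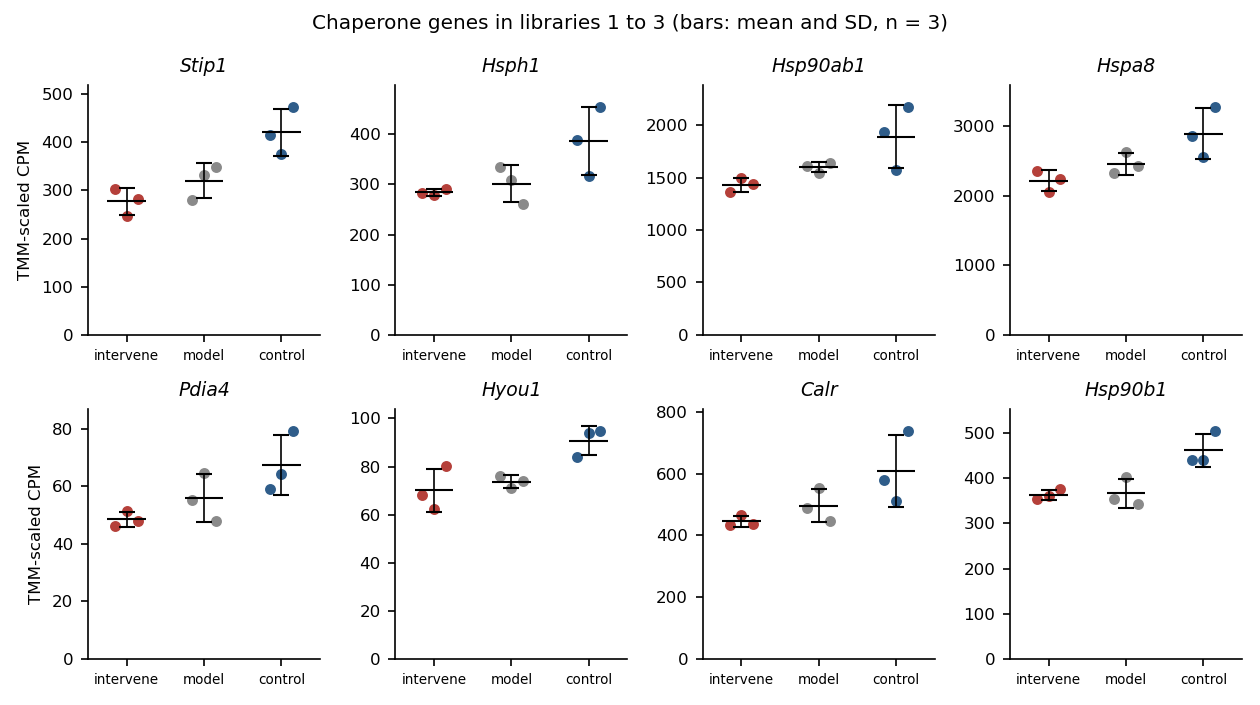
TMM-scaled CPM of 8 chaperone genes in libraries 1 to 3, with 1 point per library, numbered 1, 2 and 3 from left to right, and a bar for the mean ± SD (n = 3) in intervene, model and control. For Stip1, Hsph1, Hsp90ab1, Hspa8, Pdia4, Hyou1, Calr and Hsp90b1 every intervene point lies below every control point. Stip1 was chosen with its values known and the others are among the members of lowest p, so this separation partly follows from the choice. It held for 11 of 25 heat shock genes and 11 of 20 genes of the unfolded protein response.

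Other genes of lowest p belonged to no list. On the higher side, Klhl40, a kelch protein known from skeletal muscle, was at 3.62, 3.58 and 2.78 CPM in intervene, against 0.948, 1.02 and 1.65 CPM in control (1.5 ± 0.28, edgeR adjusted p = 0.220). Hnrnpdl, an RNA-binding protein, was at 156, 158 and 150 CPM in intervene, against 112, 115 and 103 CPM in control (0.49 ± 0.09, edgeR adjusted p = 0.220). Anxa4, an annexin, Dpysl4, of the collapsin response mediator family, and Prps2, a phosphoribosyl pyrophosphate synthetase, had log2 fold changes of 0.94 ± 0.18, 0.52 ± 0.10 and 0.48 ± 0.10. On the lower side, Fam20a, a pseudokinase of the secretory pathway, was at 16.4, 15.2 and 15.8 CPM in intervene, against 26.8, 23.9 and 25.8 CPM in control (-0.69 ± 0.12, edgeR adjusted p = 0.185). Hnrnph3, another RNA-binding protein, was at 22.2, 23.3 and 23.8 CPM in intervene, against 39.5, 30.4 and 36.1 CPM in control (-0.61 ± 0.13, edgeR adjusted p = 0.240). Pnpla7, a lysophospholipase, had a log2 fold change of -0.56 ± 0.13. The groups did not overlap for any of these 8 genes, and DESeq2 called all 8 (adjusted p between 0.000347 and 0.0333).

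Myelin genes had a median of 0.11 over 16 members, 3 of them higher at an unadjusted p under 0.05. Aspa, which hydrolyses N-acetylaspartate in oligodendrocytes, was at 37.8, 34.8 and 40.2 CPM in intervene, against 25.5, 28.3 and 24.7 CPM in control (0.52 ± 0.12, edgeR adjusted p = 0.277), with no overlap between the groups. In haem and iron handling 3 of 17 were higher, with Slc40a1, the iron exporter ferroportin, at 6.67, 5.29 and 5.87 CPM in intervene, against 3.17, 3.60 and 4.23 CPM in control. Erythroid genes, a measure of blood in the tissue, summed to 227 to 243 CPM in intervene and 231 to 326 CPM in control.

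Immediate early genes, which neurons switch on with activity, had a median of -0.34, with 2 of 20 lower at an unadjusted p under 0.05. Fos was at 10.4, 6.26 and 7.84 CPM in intervene, against 10.9, 16.3 and 21.2 CPM in control (-0.98 ± 0.36, edgeR adjusted p = 0.489). Among clock genes Per2 was at 10.6, 12.5 and 10.7 CPM in intervene, against 17.4, 14.4 and 18.1 CPM in control (-0.56 ± 0.16, edgeR adjusted p = 0.355), while 1 of 16 clock genes was higher and 2 were lower. Of 15 RNA acetylation and modification genes 1 was higher and 2 were lower: Trmt6, of a tRNA methyltransferase, at 0.31 ± 0.12, Mettl3, the m6A methyltransferase, at -0.37 ± 0.13, and Ythdc1, an m6A reader, at -0.21 ± 0.09 on the log2 scale. Ribosome biogenesis, cholesterol synthesis and mitochondrially encoded genes had 0 members at an unadjusted p under 0.05 by edgeR, of 17, 17 and 13 measured.

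The striatal and choroid plexus medians turned on the single libraries that stood apart above. Striatal genes had a median of -1.12 with control 1 and 0.24 without it, and Penk, the proenkephalin gene, was at 107, 155 and 147 CPM in intervene, against 710, 129 and 96.5 CPM in control. Choroid plexus genes had a median of 2.62 with intervene 2 and -0.21 without it. The thalamic list had a median of -0.34 over 18 members. Its member Rgs16, a G-protein regulator, was at 9.22, 11.6 and 12.7 CPM in intervene, against 20.7, 23.3 and 17.5 CPM in control. Pan-neuronal genes had a median of -0.11 over 15 members. These lists mark the regions by which the libraries were set apart, so their members are given no test.

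Model libraries 1 to 3 place the group given Coll IV alone beside these values. The comparisons share libraries, so each list's own values are set side by side and not tested against each other. For model over control, edgeR called 0 genes, with 635 higher and 383 lower at an unadjusted p under 0.05 (3.55 and 2.14%). For intervene over model it also called 0, with 375 higher and 303 lower (2.09 and 1.69%). The median of the endothelial list was 0.30 for model over control and 0.24 for intervene over model. Esam was at 10.1, 11.5 and 10.2 CPM in model, above every control. The unfolded protein response median was -0.22 for model over control and -0.07 for intervene over model, and Stip1 was at 280, 332 and 350 CPM in model. The interferon list had medians of 0.03 for model over control and 0.41 for intervene over model. Ifit1 was at 3.43, 4.36 and 5.27 CPM in model, below every intervene library. Immediate early genes had medians of 0.26 for model over control and -0.50 for intervene over model.

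Libraries 4 to 6 gave other values for the same contrast. The 2 sets were told apart in the data by region genes, so the test of the difference between them is not independent of their choice and is given as a description. In libraries 4 to 6 edgeR called 2669 genes higher (14.9%) and 2083 lower (11.6%) in intervene. The difference between the sets itself passed for 1558 genes with a positive sign (8.7%) and 1740 with a negative sign (9.72%). Esam was at 7.11, 6.28 and 7.73 CPM in intervene 4, 5 and 6, against 12.2, 11.3 and 14.1 CPM in control 4, 5 and 6, a log2 fold change of -0.83 ± 0.13, where libraries 1 to 3 gave 0.77. Podxl was at 11.2, 11.7 and 11.7 CPM in intervene, against 20.7, 15.2 and 16.3 CPM in control there. Stip1 was at 375, 316 and 348 CPM in intervene, against 267, 241 and 265 CPM in control there, a log2 fold change of 0.43 ± 0.12, where libraries 1 to 3 gave -0.60. All 3 genes thus lay on opposite sides in the 2 sets, with no overlap between groups in either. The endothelial median was -0.28 in libraries 4 to 6. Leaving aside Esam and Podxl, 9 of the other 30 members passed the test of the difference, all in the positive direction. Of the unfolded protein response list 8 of 20 passed, all in the negative direction, as did 6 of 25 of the heat shock list. Of the 16 co-chaperones besides Stip1, 1 passed in each direction. Interferon and reactive microglia lists had medians of 0.48 and 0.71 in libraries 4 to 6, on the same side as in libraries 1 to 3. The thalamic median was 1.38 there, and the part of regional content in these differences was not tested.

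**Figure D5:**
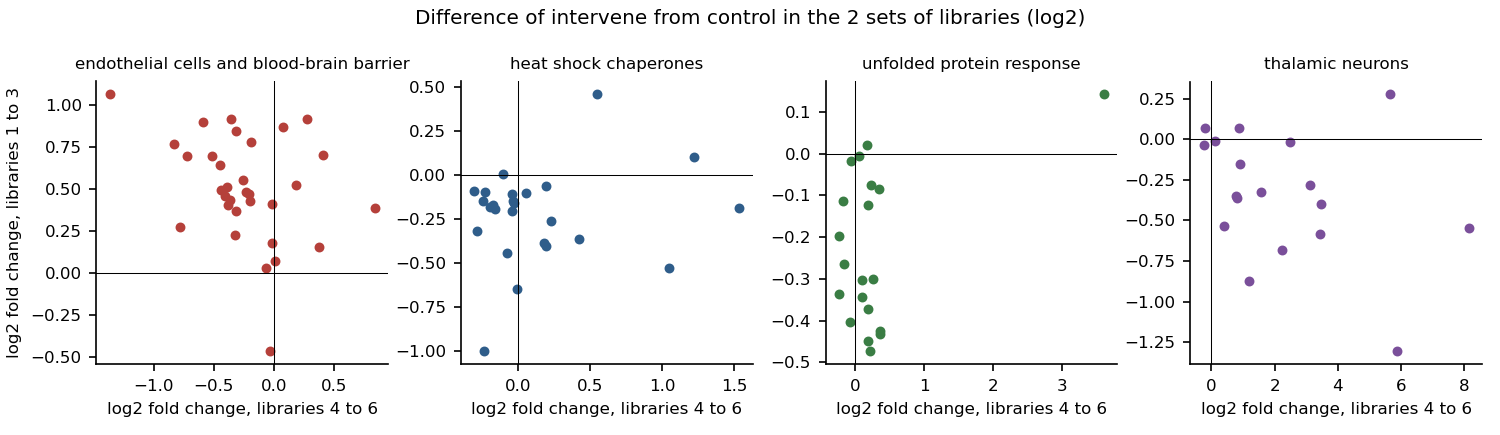
Log2 fold change of intervene over control in libraries 1 to 3 (vertical axis) against libraries 4 to 6 (horizontal axis) for members of 4 lists, with 1 point per gene and axes scaled separately. Endothelial genes lie mostly in the upper left, with list medians of 0.49 and -0.28, unfolded protein response genes mostly below 0 on the vertical axis, and thalamic genes mostly to the lower right, with medians of -0.34 and 1.38.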

How the data were processed

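RNA from thalamus was sequenced in 18 libraries, and 6 are compared here. TRIzol extraction and capture on oligo(dT) beads are named in the labels' protocols. The authors deposited raw counts per gene and FPKM. Per the submitters' processing notes, HISAT2 and featureCounts were used with GRCm39. Versions and strand settings were not given in the sources. The deposited FPKM equal count over length and total for 18117 of 18117 genes counted in every library (relative tolerance 1e-06), so FPKM served only as an alternative.

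Counts were fitted with edgeR 4.0.16 in R 4.3.3 (TMM, robust quasi-likelihood F test), with all 18 libraries in 1 fit of 6 means (group by libraries 1 to 3 and 4 to 6). Genes passed filterByExpr in the 6 libraries, and p-values were adjusted by Benjamini-Hochberg with a threshold of 0.05. Libraries 1 to 3 thus borrow the spread of all 18. The SE and p-values therefore assume that both sets share 1 spread per gene, which was not tested. CPM are TMM-scaled, and the SE is the log2 fold change over the square root of F. Alternatives were DESeq2 1.42.0, limma-voom (limma 3.58.1), other scalings and filters, fewer libraries and log2(FPKM + 1). Within each group the counts of paired libraries differed by far more than sampling noise (chi-square over degrees of freedom 28.7 or more), so none repeated another. This does not show that they come from separate animals.

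The members and the 47 gene lists (711 of 757 distinct genes tested) were chosen with earlier results of these data known. Named are Nat10, Esam, Podxl, Stip1, in either direction the 8 lowest p among genes of mean CPM 1 or more with a proper symbol, and for each list as many as 4 members by p. Genes of lowest p in the test of the difference between the sets were named as well, in either direction. Only some of these are printed. Tcf7l2, Slc17a7, Ttr, Rbm3, Mfsd2a, Cldn5, Hspb8 and Fkbp5 were named after their values were seen. Reads shared by paralogs and pseudogenes may be divided differently between the copies.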

Additional observations from a re-analysis of the deposited data

Results flagged for a closer look

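For the genes of the next paragraph the intervene over control difference in libraries 1 to 3 differed from that in libraries 4 to 6, by edgeR's test of the difference at an adjusted p under 0.05. The sets were told apart in the data by region genes, so this test is not independent of their choice. Values in parentheses are log2 fold changes in libraries 1 to 3 minus those in libraries 4 to 6.

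Of the vascular genes named, positive differences were found for Flt1 (0.97), Slco1a4 (1.17), Rgs5 (1.23), Pdgfrb (0.65), Pdgfb (0.72) and Lum (1.57), and a negative one for Jam2 (-0.76). Over all genes, 8.7% had a positive and 9.72% a negative difference, and counts by list are to be read against these shares. The 30 endothelial genes besides Esam and Podxl had 9 positive and 0 negative differences. The 19 genes of the TGF-beta pathway had 2 and 2, near the shares over all genes. The 13 basement membrane genes had 2 and 1, and the 18 genes of coagulation and proteases 0 and 3. Positive differences were also found for Klhl40 (3.03), Ltk (2.0), Tmem132a (1.81), Dpysl4 (1.22), Anxa4 (0.84), Hnrnpdl (0.73) and Prps2 (0.57), and for Cxcl12 (1.51), Cd163 (2.19), Slc40a1 (1.00), Tef (0.99) and Rbm3 (1.21). Of these, Ltk, Tmem132a and Dpysl4 were named for a low p in this same test, so their passing it is no support. Of the chaperone genes named, negative differences were found for Fkbp4 (-0.73), Pdia4 (-0.68), Calr (-0.63), Hsp90ab1 (-0.60), Hspa8 (-0.57), Hyou1 (-0.55) and Hsp90b1 (-0.43), and a positive one for Fkbp5 (1.16), a co-chaperone of HSP90 induced by glucocorticoids. Negative differences were also found for Hnrnph3 (-1.31), Fam20a (-1.13), Pnpla7 (-0.86), F3 (-0.68) and Mettl3 (-0.58), and for Ntsr2 (-1.18), Aqp4 (-0.55), Fos (-2.30) and Ccl5 (-1.91). 

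The following values are a description with no test, and support nothing. Esam (1.60), Podxl (1.5) and Stip1 (-1.03) were chosen with these values known. Oxt (-12.41), Shox2 (-8.69), Ttr (-8.67), Kcnj5 (-4.54), Tcf7l2 (-3.41), Rgs16 (-2.06), Ntng1 (-2.02) and Gad2 (-1.70) are of the kind by which the libraries were set apart.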

How the results depend on the processing

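With 3 libraries a group the depth of 28481225 counts or more left few reads for genes near 0.1 CPM, so their folds depend on the prior count. No setting besides DESeq2 and leaving out control replicate 2 called a gene by the adjusted p. DESeq2 called 38 higher and 18 lower, Esam, Podxl and Stip1 among them, and leaving out single replicates gave 0 to 1 higher. With the 6 libraries fitted alone, 614 genes were higher and 624 lower at an unadjusted p under 0.05, against 941 and 585, and the smallest adjusted p was 0.715. With the 9 libraries numbered 1 to 3 fitted alone, the smallest adjusted p was 0.678. Both fits have fewer samples from which to estimate the spread. With the 6 alone, 12 endothelial genes besides Esam and Podxl were higher at an unadjusted p under 0.05, against 16. Pericyte, fibroblast and reactive astrocyte lists then had 3, 1 and 6 higher, against 5, 4 and 9, and the interferon list 8 against 10. Heat shock and unfolded protein response lists had 9 and 10 lower, against 8 and 9.

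Same-numbered intervene and control libraries had correlations of their deviations of -0.17, -0.31 and -0.12. Libraries of unlike number had -0.22 to 0.31. With 3 libraries a group and uneven tissue content, these values cannot show whether same-numbered libraries are paired. With the replicate number as a block edgeR called 0 genes, with 912 higher and 575 lower at an unadjusted p under 0.05. The log2 fold change of Kcne2 was 3.13, but -0.13 without intervene replicate 2, and -0.13 to 4.73 over all single replicates left out. That of Penk was -1.19, but 0.28 without control replicate 1, and -1.62 to 0.28 over all. That of Fkbp5 was 0.11, but -0.11 without control replicate 2, and -0.11 to 0.26 over all. The cause was not tested. The other values of the genes given in the text kept their direction under the 15 settings besides the main one. On log2(FPKM + 1), the endothelial median was 0.24, since that scale understates changes of low genes.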

Other observations

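Among the 585 genes lower in intervene at an unadjusted p under 0.05, 581 have a biotype in the annotation and 107 of these are pseudogenes (18.4%). Among the 941 higher genes it was 11 of 936 (1.18%), and over all genes tested 874 of 17710 (4.94%). Pseudogene counts can hold reads of their parent genes, and this was not tested.

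Rbm3, an RNA-binding protein induced by cold, is in none of the lists and was picked after its values were seen. It was at 48.3, 49.3 and 43.0 CPM in intervene, against 27.9, 31.5 and 20.2 CPM in control (log2 fold change 0.82 ± 0.23, edgeR adjusted p = 0.355). All intervene libraries lay above all controls.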
